A study of Homo sapiens with 6 samples.

Results

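The Notch pathway was followed through 10 genes in cultured human endothelial cells with and without CCM3. They are the receptors NOTCH1, NOTCH2, NOTCH3 and NOTCH4, the ligands DLL4, JAG1 and JAG2, and the target genes HEY1, HEY2 and HES1. The genes were taken by symbol from a count table of 28514 rows, of which 20830 held a count, and all 10 were found. The cells were CI-huVEC, human umbilical vein endothelial cells that have been immortalised, and every sample was at passage 31. The wild-type group was made of the lines WT 1, WT 2 and WT 4. The CCM3 -/- group was made of the clones K17, K18 and K19, edited with CRISPR/Cas9 at exon 3 of CCM3. CCM3 is another name of PDCD10, a gene whose loss causes cerebral cavernous malformations, clusters of enlarged capillaries in the brain. Each line gave 1 messenger RNA library. Wild-type and edited samples alike carry the clone label HKO, which the labels do not explain. The effect of losing CCM3 and differences between clones cannot be told apart. The labels do not say that the wild-type lines were separate cultures, so p-values speak only of the variation among these 6 libraries, part of which may be technical. In whole cultures, fewer cells of a type and less RNA per cell cannot be told apart either.

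Notch receptors are single-pass membrane proteins that bind Delta-like and Jagged ligands on a neighbouring cell. Binding leads to cleavage of the receptor, and the freed intracellular domain enters the nucleus, joins the DNA-binding protein RBPJ and Mastermind, and turns on genes of the HES and HEY families, which encode repressors of transcription. In endothelium, DLL4 on a leading tip cell restrains its neighbours during sprouting, JAG1 can counter DLL4, and Notch activity is needed for arterial identity.

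Total counts ranged from 28280417 to 32919491 per library, and 3 counts, used as the limit of what a count of 0 allows, came to between 0.0903 and 0.108 CPM (counts scaled to library size with TMM factors). The biological coefficient of variation was 0.0379 among the wild-type libraries and 0.245 among the clones. The targeted gene PDCD10 measured 60.5 CPM in WT 1, 60.7 in WT 2 and 61.6 in WT 4 and 42.3 CPM in K17, 31.6 in K18 and 37.6 in K19 (edgeR adjusted p = 0.00374), lower in 3 of 3 clones. All 12 endothelial markers examined were tested, with 9 called higher and 1 lower in the clones (edgeR adjusted p below 0.05). Over all tested genes, 18% were called higher and 20.8% lower. With the GC-content trend described below removed, CLDN5 and ESAM lost the call (edgeR adjusted p = 0.119 and 0.537). The other called markers kept it, EGFL7 at 0.48 instead of 1.39 on the log2 scale and TEK at 1.87 instead of 1.77. The summed level of the 12 was 3024 to 3176 CPM in wild type and 4861 to 5463 CPM in the clones. These sums keep that trend. Of 12 mural-cell markers, 8 were each at or below 0.588 CPM in every library. RGS5 was the main exception and is described beside HEY2. The 7 fibroblast markers summed to between 14.0 and 15.5 CPM in wild type and between 4.94 and 47.3 CPM in the clones, 5 epithelial markers to between 242.5 and 261 CPM and between 349 and 625 CPM, and 5 leukocyte markers to between 20.3 and 24.4 CPM and between 37.0 and 41.8 CPM. The epithelial sum came mostly from the keratin gene KRT18, while CDH1, which defines epithelium, had no count in any library, and the leukocyte sum came mostly from CD68.

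In the clones the receptor gene NOTCH4 and the ligand genes DLL4 and JAG1 rose, while the target gene HEY2 and the weakly transcribed receptor gene NOTCH3 fell. NOTCH1, NOTCH2, JAG2, HEY1 and HES1 were not called. A gene was called at an adjusted p below 0.05 by edgeR's quasi-likelihood test, adjusted over all 14548 tested genes. All 10 Notch genes passed the filter on low counts, NOTCH3 and HEY2 only through their wild-type libraries. The 5 called of 10 (50.0%) stand beside 38.7% of all tested genes. The 3 higher stand beside 18% of all tested genes called higher, and the 2 lower beside 20.8% called lower. For the same 5 genes the 3 clones lay wholly above or wholly below the 3 wild-type libraries, which was so for 55.5% of all tested genes. Neither count is far from the background, so the number of Notch genes called does not set them apart. The median log2 fold change was 0.002 over all tested genes, with a median size of 0.327.

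**Figure D1:**
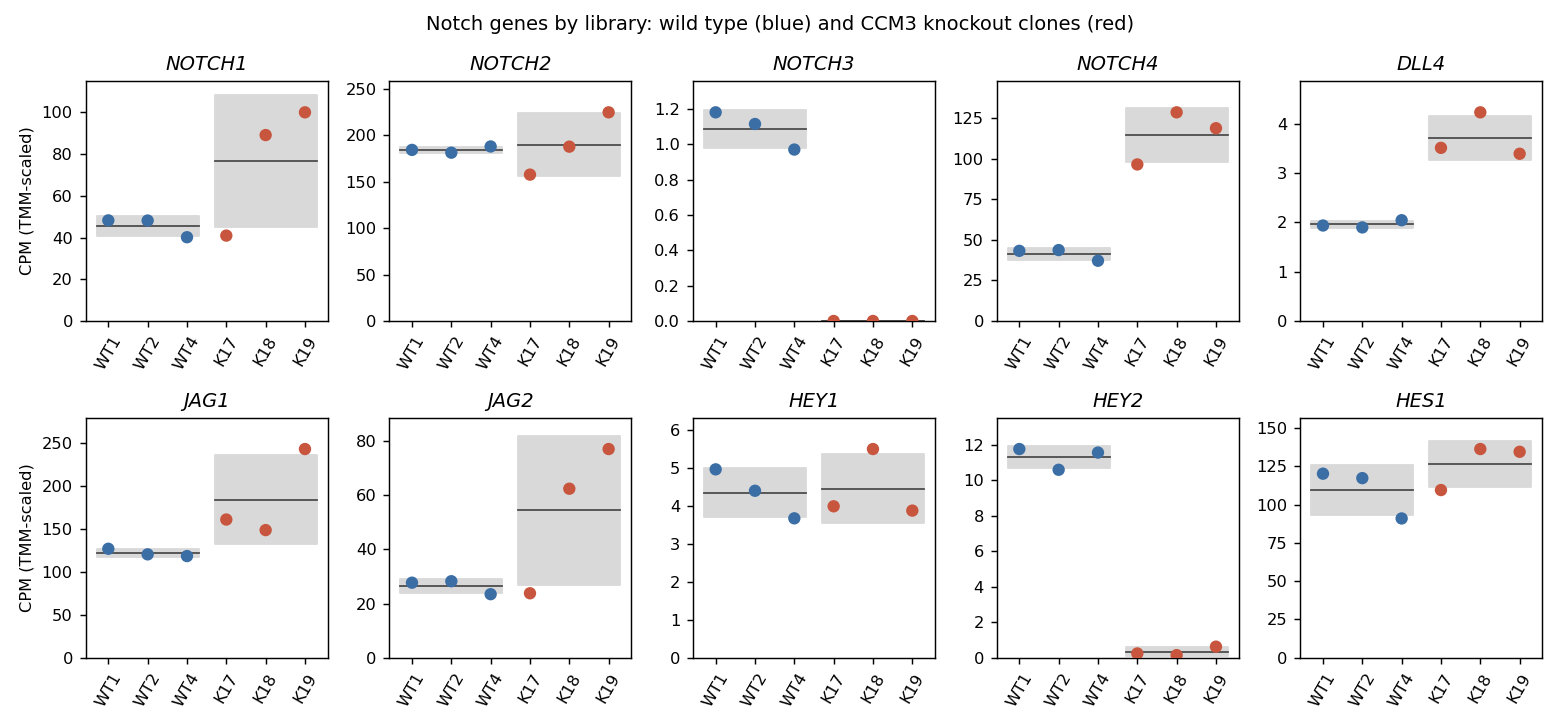
Level of each of the 10 Notch genes in every library, in TMM-scaled CPM on axes that start at 0. Blue points are the wild-type libraries and red points the CCM3 -/- clones, the line is the group mean and the grey band is 1 SD either side (n = 3). NOTCH4, DLL4 and JAG1 lie higher in every clone, NOTCH3 and HEY2 lower, and K17 lies with the wild type for NOTCH1 and JAG2.

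Among the receptors, NOTCH4, which is expressed mainly in endothelium, showed the largest called increase of the 10 genes. It measured 43.3 CPM in WT 1, 43.8 in WT 2 and 37.2 in WT 4 and 96.6 CPM in K17, 129 in K18 and 119 in K19. Every clone lay above every wild-type library, with K17 the lowest clone. The mean went from 41.4 ± 3.68 to 114.8 ± 16.5 CPM (SD, n = 3 in each group), a log2 fold change of 1.47 (SE 0.13, adjusted p = 0.000444 by edgeR). NOTCH4 was called in all 17 alternative settings, with log2 fold changes from 1.18 to 1.59.

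NOTCH1, the receptor through which DLL4 is best known to act in vessels, measured 48.2 CPM in WT 1, 48.1 in WT 2 and 40.1 in WT 4. The clones gave 40.9 CPM in K17, 89.1 CPM in K18 and 99.97 CPM in K19. K17 thus lay within the wild-type range while K18 and K19 lay well above it. The log2 fold change was 0.75 (SE 0.32, adjusted p = 0.106 by edgeR), not called. NOTCH1 was called by DESeq2 (0.76, adjusted p = 0.0295) and by edgeR without K17 (1.06, adjusted p = 3.51e-05), where 62.6% of all tested genes were called. The authors' deposited table lists NOTCH1 at a log2 fold change of 0.70 with an adjusted p of 0.0368.

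NOTCH2 gave 184, 181 and 188 CPM in wild type and 157 CPM in K17, 188 in K18 and 224 in K19. The clones spread to both sides of the wild-type libraries. The log2 fold change was 0.04 (SE 0.13, adjusted p = 0.802 by edgeR), and its sign turned in 4 of 17 settings. The table also has a row for NOTCH2NL, a near-identical partial copy of NOTCH2, at 9.26, 10.8 and 10.3 CPM in wild type and 6.65, 9.44 and 8.44 CPM in the clones, so reads of the pair may have been split and the NOTCH2 level is uncertain.

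NOTCH3, the receptor typical of vascular smooth muscle and pericytes, was weakly transcribed in wild type, with 39, 37 and 28 counts in WT 1, WT 2 and WT 4. No count was found in any of K17, K18 and K19. In CPM the wild-type libraries held 1.18, 1.11 and 0.97, and a count of 0 allows up to 0.102, 0.108 and 0.104 CPM in the 3 clones. With 3 counts set over the whole knockout group, NOTCH3 was 31.3-fold lower in the clones (adjusted p = 0.000981 by edgeR). That value leaves out the counting error of the wild-type counts. The authors' deposited table gives NOTCH3 a log2 fold change of -3.38, smaller in size than the 4.97 that 31.3-fold makes on that scale. How the authors treated counts of 0 is not stated, so these may be unlike measures. Genes on either side of NOTCH3 on chromosome 19 in the RefSeq order, chosen for display after their values were seen, did not share the fall. SYDE1 (log2 fold change 0.13) and ILVBL (0.36) were not called, and EPHX3 had too few counts to test.

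Of the ligands, DLL4, the Delta-like ligand of arterial and tip cells, was low throughout but higher in the clones. It measured 1.94, 1.90 and 2.04 CPM in wild type and 3.51 CPM in K17, 4.23 in K18 and 3.39 in K19. The lowest clone lay well above the highest wild-type library, on 59 to 117 counts a library. The log2 fold change was 0.92 (SE 0.15, adjusted p = 0.00517 by edgeR), and the call held in all 17 alternative settings.

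JAG1, the most abundant of the 3 ligands, measured 127, 120.5 and 118 CPM in wild type and 161 CPM in K17, 149 in K18 and 243 in K19. All clones lay above the wild type, and K19 lay far above the other clones. The log2 fold change was 0.60 (SE 0.19, adjusted p = 0.0458 by edgeR). JAG1 lost the call in 7 of 17 settings, with adjusted p-values up to 0.139, while its sign stayed positive in all 17. The call went when WT 1 (adjusted p = 0.113), WT 2 (0.126), WT 4 (0.139) or K17 (0.054) was left out. Over all tested genes, the share called fell from 38.7% to 20.9%, 22.8% and 20.4% without WT 1, WT 2 and WT 4. Without K17 that share rose to 62.6%.

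JAG2, a second Jagged ligand, followed the same order of clones as NOTCH1. Its levels were 27.7, 28.3 and 23.5 CPM in wild type, and 23.8 CPM in K17, 62.5 in K18 and 77.1 in K19. K17 again lay inside the wild-type range and K18 and K19 above it. The log2 fold change was 1.04 (SE 0.40, adjusted p = 0.0843 by edgeR), not called. It was called by DESeq2 (1.04, adjusted p = 0.0123) and by edgeR without K17 (1.40, adjusted p = 3.05e-05). Without K17, 62.6% of all tested genes were called. The authors' deposited table gives JAG2 0.93 with an adjusted p of 0.0153.

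The target genes did not move together. HEY2, a repressor known from mice and zebrafish to act in arteries and the heart, measured 11.8 CPM in WT 1, 10.6 in WT 2 and 11.6 in WT 4. In K17, K18 and K19 it measured 0.239, 0.145 and 0.623 CPM. These levels come from 389, 352 and 334 counts in wild type and 7, 4 and 18 counts in the clones. All clones lay far below the wild type, with K19 the highest of them. On the summed counts, scaled for library size, HEY2 was 33.5-fold lower in the clones, with an exact 95% counting interval of 23.2 to 50.2 that covers counting error only. The fitted log2 fold change was -5.05 (SE 0.42, adjusted p = 0.00042 by edgeR), the largest fitted change of the 9 Notch genes with counts in both groups. It was called in all 17 alternative settings.

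RGS5, a gene usually taken as a pericyte marker, was among the genes closest to HEY2 in pattern, by the measure of likeness described below with its limit. It measured 299, 294 and 309 CPM in wild type and 11.2 CPM in K17, 5.06 in K18 and 14.9 in K19. Without RGS5, the summed mural markers went from between 79.3 and 99.4 CPM to between 35.6 and 66.7 CPM. The list moved in both directions. The actin-binding protein gene TAGLN, which made up most of the remainder, fell from 83.8 to 40.4 CPM, whereas ACTA2, an actin gene of smooth muscle, rose from 3.88 to 13.5 CPM (edgeR adjusted p = 0.0162 and 0.00305), while the defining pericyte marker PDGFRB was at or below 0.208 CPM in every library. The part of mural-type transcripts in the falls of HEY2 and NOTCH3 was not tested.

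HES1, which encodes a widely expressed repressor, measured 120, 117 and 91.0 CPM in wild type and 109.5 CPM in K17, 136 in K18 and 134.5 in K19. The groups overlapped, since K17 lay between WT 4 and WT 2. The log2 fold change was 0.21 (SE 0.14, adjusted p = 0.252 by edgeR). HES1 was called in none of the 17 alternative settings, with adjusted p-values from 0.0516 to 0.588. HEY1, a close relative of HEY2, measured 4.96, 4.40 and 3.67 CPM in wild type and 3.99, 5.50 and 3.87 CPM in the clones. Its groups overlapped too, at a log2 fold change of 0.03 (SE 0.20, adjusted p = 0.901 by edgeR) whose sign turned in 5 of 17 settings. On the summed counts the HEY1 ratio, knockout over wild type, was 1.01, with a 95% counting interval of 0.88 to 1.17.

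The promoters of HEY2 and HES1 are shown because both hold the letters that RBPJ is known to bind, while their transcripts behaved differently. The sequences are RefSeq's for GRCh38.p14, a later build than that of the counts, and run from 250 bases before the annotated start to 30 bases after it. Capitals mark the RBPJ core TGGGAA, searched on both strands. HEY2 is shown at chr6:125749382-125749661 and HES1 at chr3:194135898-194136177, both on the plus strand.
HEY2: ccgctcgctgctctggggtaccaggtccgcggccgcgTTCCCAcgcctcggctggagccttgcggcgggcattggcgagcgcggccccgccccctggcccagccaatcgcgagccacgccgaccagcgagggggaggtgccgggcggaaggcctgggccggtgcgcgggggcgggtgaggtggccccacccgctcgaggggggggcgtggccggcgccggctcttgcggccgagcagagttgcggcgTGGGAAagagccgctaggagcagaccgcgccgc
HES1: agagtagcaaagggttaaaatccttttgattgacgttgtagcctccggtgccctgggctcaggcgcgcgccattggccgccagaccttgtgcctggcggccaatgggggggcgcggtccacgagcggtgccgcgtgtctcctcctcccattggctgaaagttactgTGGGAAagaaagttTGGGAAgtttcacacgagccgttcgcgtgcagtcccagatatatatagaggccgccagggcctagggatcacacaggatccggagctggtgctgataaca
In HEY2 the 2 matches begin 213 bases before the start, on the minus strand, and 3 bases before it, on the plus strand, and both extend to GTGGGAA. In HES1 they begin 84 and 70 bases before the start on the plus strand, and the one at 84 extends to GTGGGAA. Promoters were in the table for 9 of the 10 genes, and HEY2 and HES1 were the 2 of these with a match. The gene without a promoter there was the target HEY1, which was therefore not searched. Of all 27305 promoters of that length, 23.1% held the core at least once and 3.51% at least 2 times. The longer GTGGGAA, which contains the core, was held at least 2 times by 0.223%. A match describes the letters in this window and does not show binding.

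**Figure D2:**
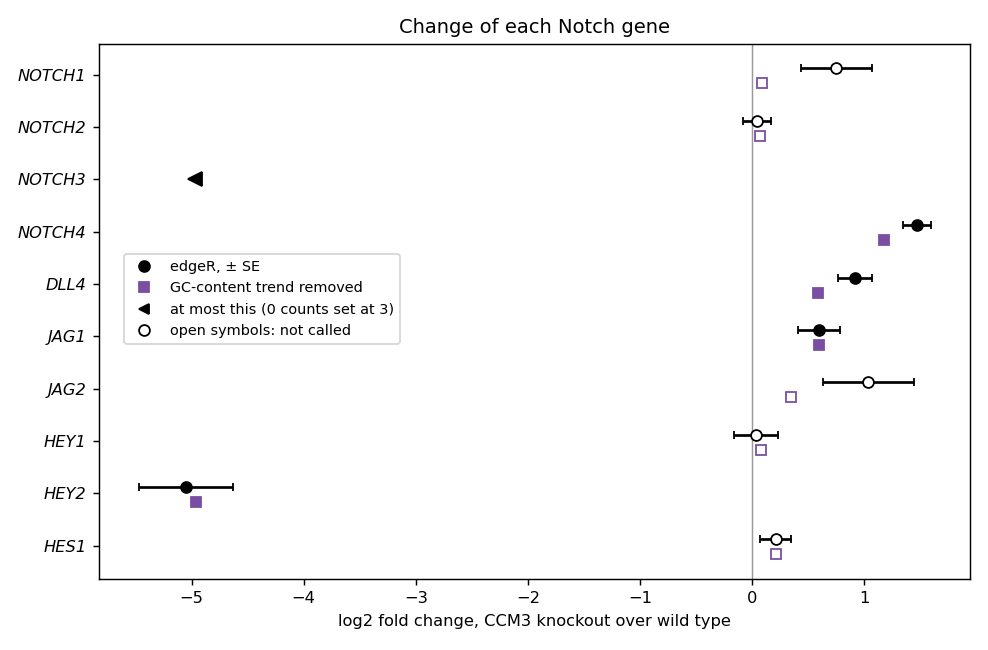
Log2 fold change of each Notch gene, CCM3 -/- clones over wild type, with its SE from edgeR (circles) and after removal of the GC-content trend of each library (squares). Filled symbols are called at an adjusted p below 0.05, and the triangle is the bound for NOTCH3, which had no count in the clones. NOTCH4 stays called at 1.18 and HEY2 at -4.96, whereas NOTCH1 moves from 0.75 to 0.09 and JAG2 from 1.04 to 0.35.

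Levels of different genes were compared per transcript length, in the FPKM that the authors deposited. In wild type, NOTCH2 led the receptors at 13.0 ± 0.261 FPKM, followed by NOTCH4 at 4.97 ± 0.429, NOTCH1 at 3.96 ± 0.391 and NOTCH3 at 0.109 ± 0.00985 (SD, n = 3). In the clones NOTCH4 stood at 13.3 ± 1.74 FPKM and NOTCH2 at 12.9 ± 2.04, levels whose ranges overlapped, with NOTCH1 at 6.43 ± 2.54. By FPKM, NOTCH4 lay above NOTCH2 in K17 and K18 and below it in K19, and below it in every wild-type library. The FPKM keep the GC-content trend of each library, described below, and no order, share or sum was computed with it removed. In K18 that removal took NOTCH4 (58.7% GC) from 129 to 104 CPM and NOTCH2 (49.8% GC) from 188 to 191 CPM. The order of the 2 receptors in K18 is therefore uncertain. As a share of the summed FPKM of the 4 receptors, NOTCH4 made up 23.1%, 23.5% and 20.9% in wild type and 44.1%, 42.4% and 36.8% in K17, K18 and K19. The share of NOTCH2 was 57.7%, 57.2% and 62.2% in wild type and 42.3%, 36.3% and 40.8% in the clones. Neither pair of groups overlapped. With 3 libraries against 3, the exact permutation test gave its smallest possible p of 0.1 for both shares (two-sided, 0.2 adjusted over the 10 shares tested), so no share could pass 0.05. The NOTCH1 share was 17.9 ± 1.33% and 19.1 ± 4.82%, with overlapping groups.

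The ligands kept their order. JAG1 made up 80.0 ± 1.11% of the ligand FPKM in wild type and 75.2 ± 8.31% in the clones, JAG2 17.8 ± 1.25% and 22.0 ± 8.37%, and DLL4 2.25 ± 0.169% and 2.79 ± 0.855% (exact permutation p = 0.4, 0.5 and 0.4 before adjustment). All 3 ligand shares overlapped between the groups. Of the target FPKM, HES1 made up 92.4 ± 0.958% in wild type and 97.7 ± 0.259% in the clones, while HEY2 went from 5.30 ± 0.922% to 0.14 ± 0.0981% (exact permutation p = 0.1 for both). The HEY1 share overlapped, at 2.32 ± 0.106% and 2.18 ± 0.357%. Summed FPKM was 22.0 ± 0.574 in wild type and 32.7 ± 5.87 in the clones for the receptors, 20.6 ± 0.711 and 32.2 ± 8.79 for the ligands, and 65.5 ± 8.79 and 69.5 ± 7.09 for the targets. The sums of the receptors and of the ligands were higher in every clone than in any wild-type library, and those of the targets overlapped.

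**Figure D3:**
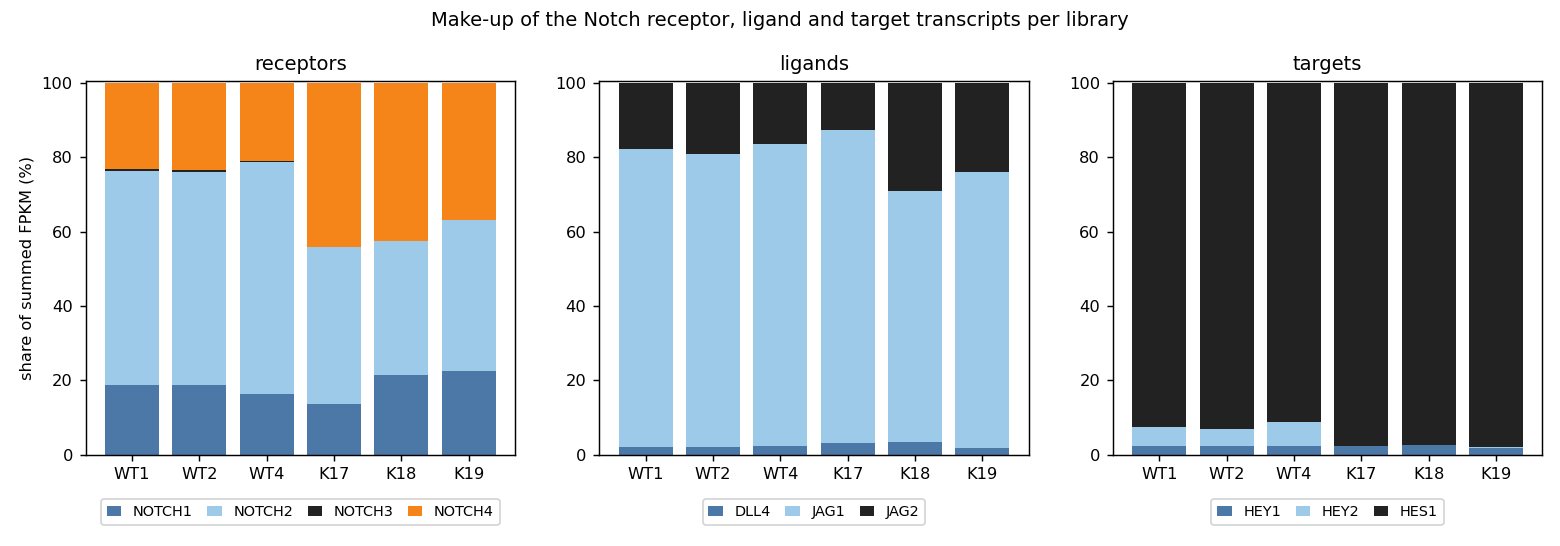
Share of each gene in the summed FPKM of the 4 receptors, the 3 ligands and the 3 targets, in percent, 1 bar per library. The NOTCH4 share lies between 20.9% and 23.5% in wild type and between 36.8% and 44.1% in the clones, and the HEY2 share is at most 0.248% in the clones.

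The libraries differed in how counts depended on the GC content of the transcripts, and K18 and K19 differed most from the rest. At the GC content of NOTCH1 (64.1%), the lowess trend departed from the mean of the 6 libraries by -0.25, -0.19 and -0.44 on the log2 scale in WT 1, WT 2 and WT 4, by -0.29 in K17, and by 0.60 and 0.58 in K18 and K19. In the levels of NOTCH1 and JAG2 (64.0% GC), too, K18 and K19 lay above the other 4 libraries. With the trend removed, NOTCH1 stood at 57.3, 54.7 and 54.5 CPM in wild type and at 49.9, 58.9 and 66.6 CPM in the clones. Its log2 fold change was then 0.09 (adjusted p = 0.452 by edgeR) and that of JAG2 0.35 (adjusted p = 0.16). NOTCH4 (58.7% GC) kept its call at 1.18 (adjusted p = 1.7e-05), with 47.3, 46.6 and 43.4 CPM in wild type and 103, 104 and 99.5 CPM in the clones. DLL4 (59.7% GC) went to 0.59 (adjusted p = 0.043), JAG1 (50.9% GC) to 0.60 (adjusted p = 0.0388) and HEY2 (46.4% GC) to -4.96 (adjusted p = 0.000194). The same 5 Notch genes were called as without the removal, beside 42.9% of the 13252 tested genes that had a GC value.

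**Figure D4:**
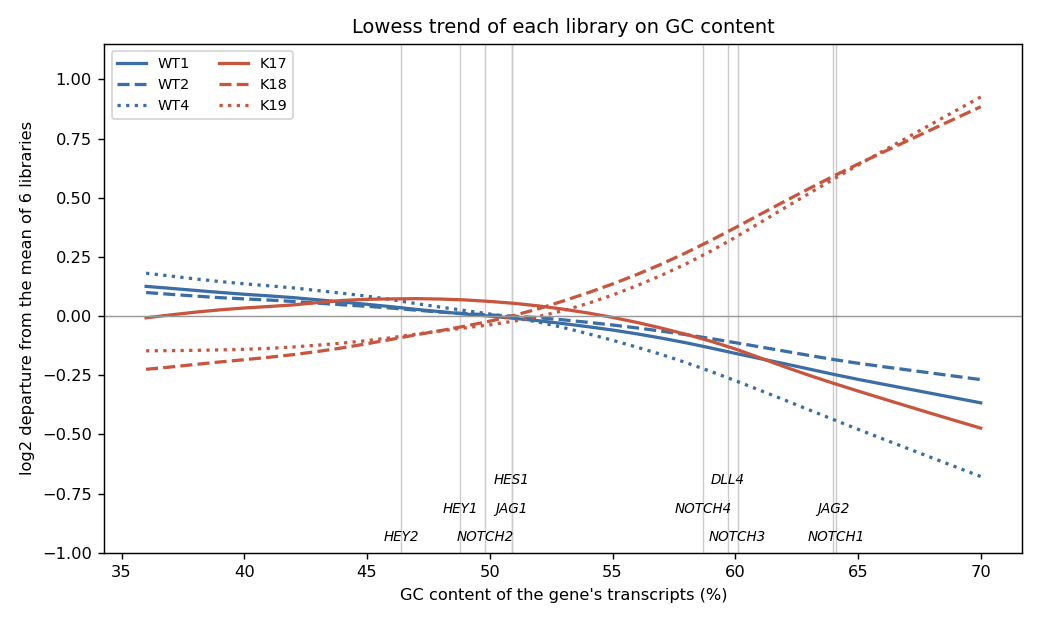
Lowess trend of each library on the GC content of a gene's transcripts, as log2 departure from the mean of the 6 libraries. Blue lines are wild type, red lines the clones, and vertical lines mark the Notch genes. K18 and K19 climb with GC content, the other 4 libraries fall above about 47% GC, and K18 and K19 reach 0.60 and 0.58 at the GC content of NOTCH1.

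The clones differed from each other more than the wild-type libraries did for 8 of the 9 Notch genes with counts in both groups, HES1 being the exception. The median coefficient of variation over all tested genes was 4.87% in wild type and 13.2% in the clones. Among the clones it was highest for HEY2 (75.5%, on few counts), JAG2 (50.6%) and NOTCH1 (41.0%), and lowest for HES1 (11.8%, against 14.7% in wild type), DLL4 (12.2%) and NOTCH4 (14.4%). The highest clone exceeded the lowest 4.31-fold for HEY2, 3.24-fold for JAG2 and 2.44-fold for NOTCH1, but 1.33-fold for NOTCH4 and 1.25-fold for DLL4. JAG1 stood out by K19, whose level lay 1.00 above the wild-type mean on the log2 scale, against 0.40 in K17 and 0.29 in K18.

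The other genes of the pathway were taken from 9 lists with 80 genes. Of these 72 were tested, 16 were higher, 15 lower and 41 not called, so 43.1% were called, close to the 38.7% of all tested genes. Their median log2 fold change was -0.01, against 0.002 over all genes.

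Further Notch ligands shifted in both directions. DLL1, a Delta-like ligand, rose from 1.23 ± 0.0977 to 3.61 ± 0.683 CPM (log2 fold change 1.55, adjusted p = 0.00196 by edgeR). The neural ligand gene DNER fell from 0.976 to 0.140 CPM (6.92-fold on summed counts, 95% counting interval 3.78 to 13.9, adjusted p = 0.00348) and MFAP2, a microfibril protein that can bind Notch ligands and receptors, from 31.9 to 11.5 CPM (-1.48, adjusted p = 0.00626). DLL3 was the remaining tested gene of this list and was lower as well (-1.06, or -1.83 once the GC-content trend was removed), a call that went when WT 2 or WT 4 was left out. Of 7 such genes, 1 was higher, 3 lower and 3 too low to test, among them DLK1 with no count.

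None of the 9 tested genes for receptor cleavage was called by edgeR or limma-voom; 4 had an unadjusted edgeR p below 0.05, and DESeq2 called 3. In this list ADAM10, the main protease at the receptor's outer face, measured 172 and 182 CPM in wild type and clones. ADAM10 (0.27, adjusted p = 0.0161) and APH1B (0.23, adjusted p = 0.0311), a gamma-secretase subunit, were called once the GC-content trend was removed. Of 6 genes for sugar modification of the receptors, 3 were higher, 1 lower and 2 not called. LFNG, a Fringe enzyme that changes how receptors respond to Delta-like and Jagged ligands, rose from 5.66 ± 0.202 to 15.3 ± 3.95 CPM (1.44, adjusted p = 0.00288). POGLUT1, which adds glucose to Notch, rose by 0.36 on the log2 scale, a call lost when any wild-type library was left out. EOGT, which adds N-acetylglucosamine, fell by 0.21 and was at -0.03 after removal of that trend (adjusted p = 0.652).

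In the nuclear complex 2 of 7 genes were lower and 5 not called. RBPJ itself measured 99.9 and 95.5 CPM and was not called (-0.06, adjusted p = 0.331 by edgeR). EP300, a histone acetyltransferase that serves as co-activator, fell by 0.38, and the Mastermind gene MAML1 fell by 0.21, a call lost in 7 of 17 settings. Of 10 corepressor genes, 2 were higher, 4 lower and 4 not called. HDAC1, a histone deacetylase, rose from 162.5 ± 0.639 to 294.9 ± 6.04 CPM (0.86, adjusted p = 7.9e-05), and TLE2, a Groucho-family corepressor, fell from 12.1 ± 1.21 to 3.56 ± 0.965 CPM (-1.76, adjusted p = 0.00157). L3MBTL3, which represses together with RBPJ, fell by 0.37 and lost the call once that trend was taken out (adjusted p = 0.0648). TLE1 rose by 0.28 and lost the call in 8 of 17 settings.

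Of the 7 tested genes for endocytosis of ligands, 2 were higher, 1 lower and 4 not called. MIB1, the ubiquitin ligase that activates ligands, fell from 130 ± 5.78 to 84.9 ± 5.96 CPM (-0.61, adjusted p = 0.00134 by edgeR). The epsin gene EPN3 rose from 0.212 to 1.73 CPM (3.02, adjusted p = 0.000209), and EPN1 rose by 0.85, a call lost in 8 of 17 settings. EPN3 had at most 7 counts in any wild-type library and passed the filter only through the clones. The gene NEURL had at most 3 counts in any wild-type library and 0, 26 and 20 counts in K17, K18 and K19, and did not pass the filter. Of the 9 tested genes for receptor turnover, 1 was higher, 1 lower and 7 not called. The list held 3 higher, 2 lower and 4 not called once the GC-content trend was removed. DTX4, a Deltex ubiquitin ligase, rose from 0.378 to 3.03 CPM (2.99, adjusted p = 0.00285 by edgeR). DTX4 had 14, 11 and 11 counts in the wild-type libraries and passed the filter only through the clones. ITCH, a ubiquitin ligase that targets Notch, fell by 0.43 (adjusted p = 0.00249 by edgeR), and DTX1 had at most 1 count in any library. DTX3, singled out after its values were seen, measured 14.6, 15.1 and 13.7 CPM in wild type and 0.239 CPM in K17, 0.289 in K18 and 8.03 in K19, and was not called (-2.34, adjusted p = 0.148).

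Among 8 tested further targets of Notch, 1 was higher, 1 lower and 6 not called. GJA5, the arterial gap-junction gene for connexin 40, measured 0.998, 1.36 and 1.18 CPM in wild type and 0.0681 CPM in K17, 0.0723 in K18 and 0.0346 in K19. It was lower in every clone (adjusted p = 0.000299 by edgeR), on 112 counts in wild type and 5 in the clones, and passed the filter through its wild-type libraries. On the summed counts GJA5 was 20.2-fold lower, with a 95% counting interval of 8.41 to 63.5. GJA4, the gene for connexin 37, had 15 counts over the wild-type libraries and 0 in the clones, too few to test. HES2 rose by 0.69, a call lost when any of WT 1, WT 2, WT 4, K18 or K19 was left out. NRARP, a feedback inhibitor that Notch turns on, measured 30.9 ± 0.662 and 27.8 ± 5.81 CPM and was not called, and neither was the arterial gene EFNB2 at 38.2 ± 0.868 and 45.9 ± 9.17 CPM. Once the GC-content trend was removed, NRARP was called lower (-0.86, adjusted p = 0.0319), and the list held 1 higher, 4 lower and 3 not called. HES5 had no count and HEYL at most 3 counts in any library.

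Of 12 genes that act upstream of Notch genes in endothelium, 6 were higher, 2 lower and 4 not called. After removal of the GC-content trend, 4 were higher, 3 lower and 5 not called. SOX18 and FOXC1 then lost the call (edgeR adjusted p = 0.145 and 0.386), and FOXC2 was called lower (0.00406). KDR, which encodes a receptor of VEGF, went up from 154.8 ± 9.34 to 374.9 ± 22.6 CPM (1.28, adjusted p = 9.2e-05 by edgeR), and KLF2, a flow-responsive transcription factor, rose by 1.94 (adjusted p = 0.000209), or by 1.27 once the GC-content trend was removed (adjusted p = 0.00438). SOX17, a transcription factor known in mice for arterial identity, measured 11.6, 11.0 and 12.2 CPM in wild type and 0.716 CPM in K17, 2.89 in K18 and 0 in K19. Every clone was below the wild type, and K19 held no count (-3.28, adjusted p = 0.0397). SOX17 lost the call in 6 of 17 settings, among them without K17 and by DESeq2. DACH1, a transcription factor known in mice for coronary artery growth, fell from 1.45 to 0.14 CPM (10.3-fold on summed counts, 95% counting interval 5.71 to 20.4, adjusted p = 0.000403). Like GJA5, SOX17, DACH1 and DNER passed the filter through their wild-type libraries.

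**Figure D5:**
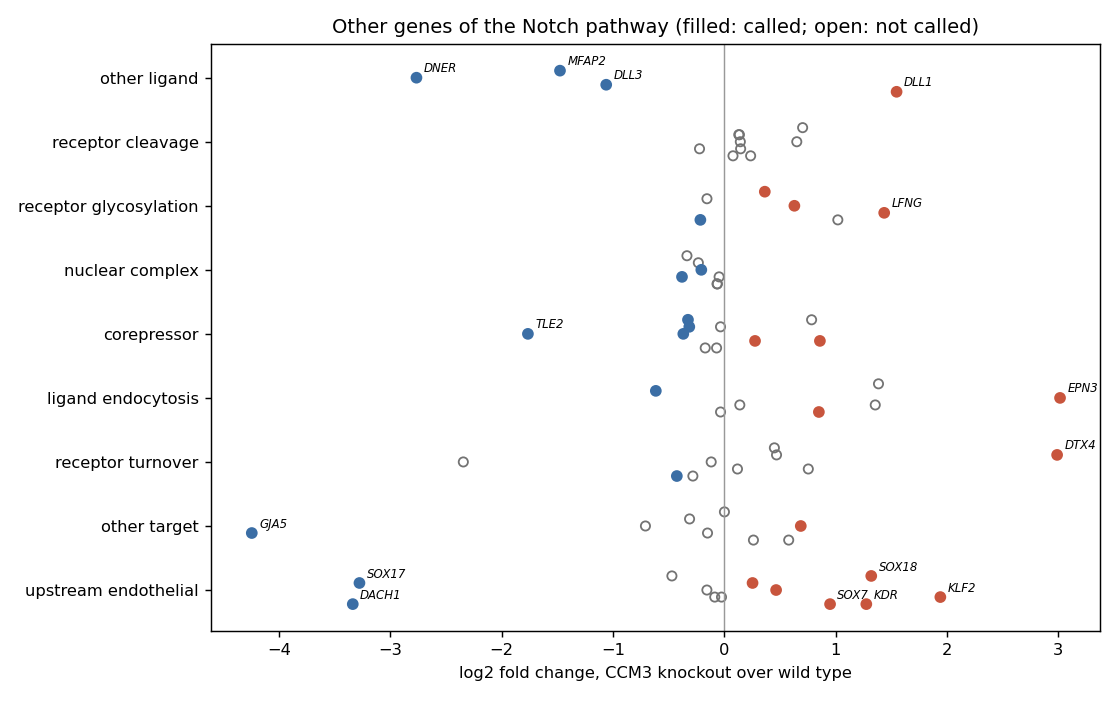
Log2 fold change, CCM3 -/- clones over wild type, of the 72 tested genes in 9 lists of the Notch pathway. Filled points are called at an adjusted p below 0.05, red higher and blue lower, and open points are not called. No filled point appears in the row for receptor cleavage, and GJA5, DACH1, SOX17 and DNER lie farthest to the left among the called genes.

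Likeness of pattern was measured over the 6 libraries as the root mean square difference of log2(CPM + 0.1) after subtracting the wild-type mean. The genes nearest to HEY2 were BGN, the gene for the matrix proteoglycan biglycan, RGS5 and MGARP, at differences of 0.231 to 0.255. BGN measured 376, 377 and 327 CPM in wild type and 12.6 CPM in K17, 8.35 in K18 and 30.6 in K19, with the clones in the same order as for HEY2. Nearest to NOTCH4 were TTC7A (0.0424), BCL3 and AGFG2, to DLL4 ACP6 (0.0555) and APOL2, and to NOTCH3 NSG1 (0.077), RBM24 and ZBED6CL. The genes nearest to NOTCH1 were PRR12 (0.0324), AHDC1 and PHRF1, whose transcripts had GC contents of 64.9%, 64.1% and 63.9%, near the 64.1% of NOTCH1. These differences describe these 6 libraries, which share their depth and GC trends within a clone. The added 0.1 is not small beside HEY2 in the clones (0.239, 0.145 and 0.623 CPM) and is the whole value of NOTCH3 there. The genes found nearest to HEY2 and NOTCH3 therefore depend on that constant, and no other was tried. Around HEY2 on chromosome 6, HDDC2 was higher (0.38, adjusted p = 0.0209 by edgeR) and NCOA7 and HINT3 were not called, these neighbours being chosen for display after their values were seen.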

How the data were processed

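Messenger RNA of 6 samples was sequenced from total RNA with a stranded kit, per the labels' protocols; STAR, HTSeq, hg19 and GRCh37 are named per the submitters' processing notes. The annotation and whether counting used strand were not stated in these notes, which leaves overlapping genes uncertain. The deposited table holds whole-number counts per symbol and the authors' FPKM. A further deposited table gives the authors' own log2 fold changes with standard errors, and their p-values with adjusted p-values, by a tool they do not name; its mean signal column was not used.

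The test was edgeR 4.0.16 (R 4.3.3), two-sided: robust quasi-likelihood F, TMM factors, filterByExpr (minimum count 10, total 15), Benjamini-Hochberg adjustment over 14548 genes, called below 0.05. CPM are TMM-scaled. Count intervals are exact at 95% and cover counting error only. Alternatives were other scalings and filters, DESeq2 1.42.0, limma 3.58.1 (voom, and log2 FPKM plus 1 or 0.1), removal of a lowess GC-content trend (span 0.3; GENCODE transcripts, 91.1% of tested genes), a threshold of 0.01, each library left out and, chosen after seeing the data, voom with quality weights per group. The fit was tested on simulated counts.

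The Notch genes and lists were chosen with earlier results of these data known. Named were all 10 Notch genes, and per list at most 2 called genes up and 2 down, by smallest adjusted p, and those with at most 3 counts in every library of a group; further names were chosen after their values were seen. Chi-square per degree of freedom was 2.16 to 4.47 between wild-type libraries and 21.0 to 74.4 between clones, so no pair differed by counting noise alone. These values cannot tell separate cultures from separate libraries of the same RNA. A few genes that these rules take are not reported here.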

Additional observations from a re-analysis of the deposited data

How the results depend on the processing

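NOTCH4, DLL4 and HEY2 kept their direction and call in 17 of 17 alternatives and NOTCH3 in 16 of 16, with 1 filter removing it. DESeq2 called 5 Notch genes higher, adding NOTCH1 and JAG2, and the filter of 1 CPM in 3 libraries left 1 lower, HEY2. Over all genes tested in these settings, 37.0% and 39.5% were called in either direction. Without K17 the groups did not overlap for 8 Notch genes, against 5 with all 6 libraries, where 55.5% of all tested genes did not overlap. With fewer clones any gene meets this more easily. The share over all genes without K17 was not counted, so the rise does not set the Notch genes apart. Leaving out 1 library gave 9 to 32 pathway genes higher, the 9 without WT 1, WT 2 or WT 4 and the 32 without K17. The same gave 9 to 17 lower, the 9 without WT 2 or WT 4. The share called over all tested genes moved likewise, from 38.7% to 20.9%, 22.8% and 20.4% without WT 1, WT 2 and WT 4. Without K17 that share was 62.6%. A threshold of 0.01 gave 9 higher and 9 lower, and the share over all tested genes at that threshold was not counted. Removing the GC-content trend gave 18 higher and 20 lower. These made up 52.8% of the 72 tested pathway genes, beside 42.9% of all tested genes in that setting. Reversed signs were small: NOTCH2 was at -0.0027 with library totals, -0.0166 and -0.0185 on log2 of FPKM plus 1 and 0.1, and -0.0767 without K19 (up to 0.1675 without K17). HEY1 was at -0.0079, -0.0091 and -0.0167 in the same settings, -0.075 without WT 4 and -0.124 without K18 (up to 0.1435 without K19). With 1 library left out, the difference in share ran from -0.515 (without K19) to 3.91 percentage points for NOTCH1 and from -0.303 to 0.0482 (without K19) for HEY1. JAG1 lost its call by limma-voom (adjusted p = 0.0519) and on log2 of FPKM plus 1 (0.0611) or 0.1 (0.0584), and without WT 1, WT 2, WT 4 or K17. The causes were not tested. No paired analysis was possible because the labels give the groups no shared replicate numbers. Depth limits NOTCH3 and HEY2, which rest on 0 to 18 counts in each clone.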
